A study of Rattus norvegicus with 30 samples.

Results

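Genes by which lung endothelium, the inner lining of its blood vessels, is commonly recognised were followed in whole rat lung, 10 in all: Cldn5, Cdh5, Kdr, Flt1, Tek, Tie1, Nos3, Ednrb, Vwf and Car4. Matched by symbol, all 10 were found among the 22914 genes with read counts, and all 10 were also among the 15934 genes that passed the filter on low counts. The rats were Sprague Dawley males of 8 weeks, and 3 from each of 10 groups gave 1 lung library each, 30 in all. Sham rats had their pancreas turned at surgery, and Con rats received sterile saline through the biliopancreatic duct. SAP rats received 5.0% sodium taurocholate, a bile salt, by the same route, which causes severe acute pancreatitis with acute lung injury. DEX rats received the taurocholate and then dexamethasone, a synthetic glucocorticoid, intravenously at 10 mg/kg. Emo rats received the taurocholate and then emodin, a plant anthraquinone, into the stomach, for which the labels give 40 mg/kg in one place and 10 mg/kg in another. Dosing of either drug was at 2 and 12 hours. Rats killed at 6 hours (DEX-6h and Emo-6h) therefore had 1 dose and those killed at 24 hours (DEX-24h and Emo-24h) had 2. Every rat without DEX had intravenous saline, and every rat without emodin had carboxymethylcellulose into the stomach. The pulmonary artery was flushed with saline before the lung was taken.

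Library size ran from 16813949 reads on genes (SAP-6h replicate 3) to 34692306 (SAP-6h replicate 2). Each of the 10 genes had between 491 and 64398 reads in every library. Levels are given as FPKM, a read count scaled by gene length and library size, and differences as log2 fold changes fitted to the counts. Fkbp5, a glucocorticoid target, was at 167 to 216 FPKM in DEX-6h and 157 to 177 in DEX-24h, above all libraries of the other 8 groups, whose highest was 109.8. It is 1 gene of a list of 10 glucocorticoid targets, whose summed FPKM did not set DEX apart from SAP or, at 6 hours, from Emo. The sum was 2531 to 4800.3 in DEX-6h, 1836 to 2721 in SAP-6h and 1308 to 2951 in Emo-6h. At 24 hours it was 1814 to 2004 in DEX-24h and 1589 to 6272 in SAP-24h. Both DEX and SAP sums were above all Sham and Con libraries of the same time (up to 1501 in Sham-6h and 1449 in Con-24h). DEX-24h was also above Emo-24h (459 to 1176).

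Endothelial cells of the lung form the barrier between blood and air space, and that barrier fails in acute lung injury. Kdr (VEGF receptor 2) is the main signalling receptor for the growth factor VEGF, and Flt1 (VEGF receptor 1) binds VEGF tightly and limits what reaches Kdr. Tek (Tie2) is the receptor for angiopoietins, which stabilise or loosen vessels, and Tie1 is its partner receptor. Cldn5 seals tight junctions and Cdh5 (VE-cadherin) holds adherens junctions together. Nos3 makes the vasodilator nitric oxide, Ednrb is an endothelin receptor that clears endothelin-1, and Vwf is a clotting protein stored mostly in endothelium of larger vessels. Car4 (carbonic anhydrase 4), like Ednrb, marks the thin capillary cells called aerocytes that face the alveoli.

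All 10 genes were detected well above 0 in each library. Per length, Cldn5 was the most abundant of them in every library, at 414 to 1260.1 FPKM, and Nos3 the least abundant, at 3.07 to 13.7 FPKM. The ranges were 96.9 to 219.9 FPKM for Cdh5, 57.5 to 147 for Tek, 30.6 to 106 for Tie1, 47.8 to 104 for Vwf, 11.1 to 70.6 for Kdr, 12.2 to 76.4 for Flt1, 14.1 to 64.4 for Ednrb and 11.01 to 118 for Car4. The spread was widest for Car4, whose highest library was 10.7 times its lowest, followed by Kdr at 6.35 times and Flt1 at 6.25 times. It was smallest for Vwf, at 2.16 times, and for Cdh5, at 2.27 times. In the deposited annotation the genes are Cldn5 (ENSRNOG00000045811, chromosome 11), Cdh5 (ENSRNOG00000013324, chromosome 19), Kdr (ENSRNOG00000046829, chromosome 14), Flt1 (ENSRNOG00000000940, chromosome 12), Tek (ENSRNOG00000008587, chromosome 5), Tie1 (ENSRNOG00000020173, chromosome 5), Nos3 (ENSRNOG00000009348, chromosome 4), Ednrb (ENSRNOG00000010997, chromosome 15), Vwf (ENSRNOG00000019689, chromosome 4) and Car4 (ENSRNOG00000002916, chromosome 10).

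**Figure D1:**
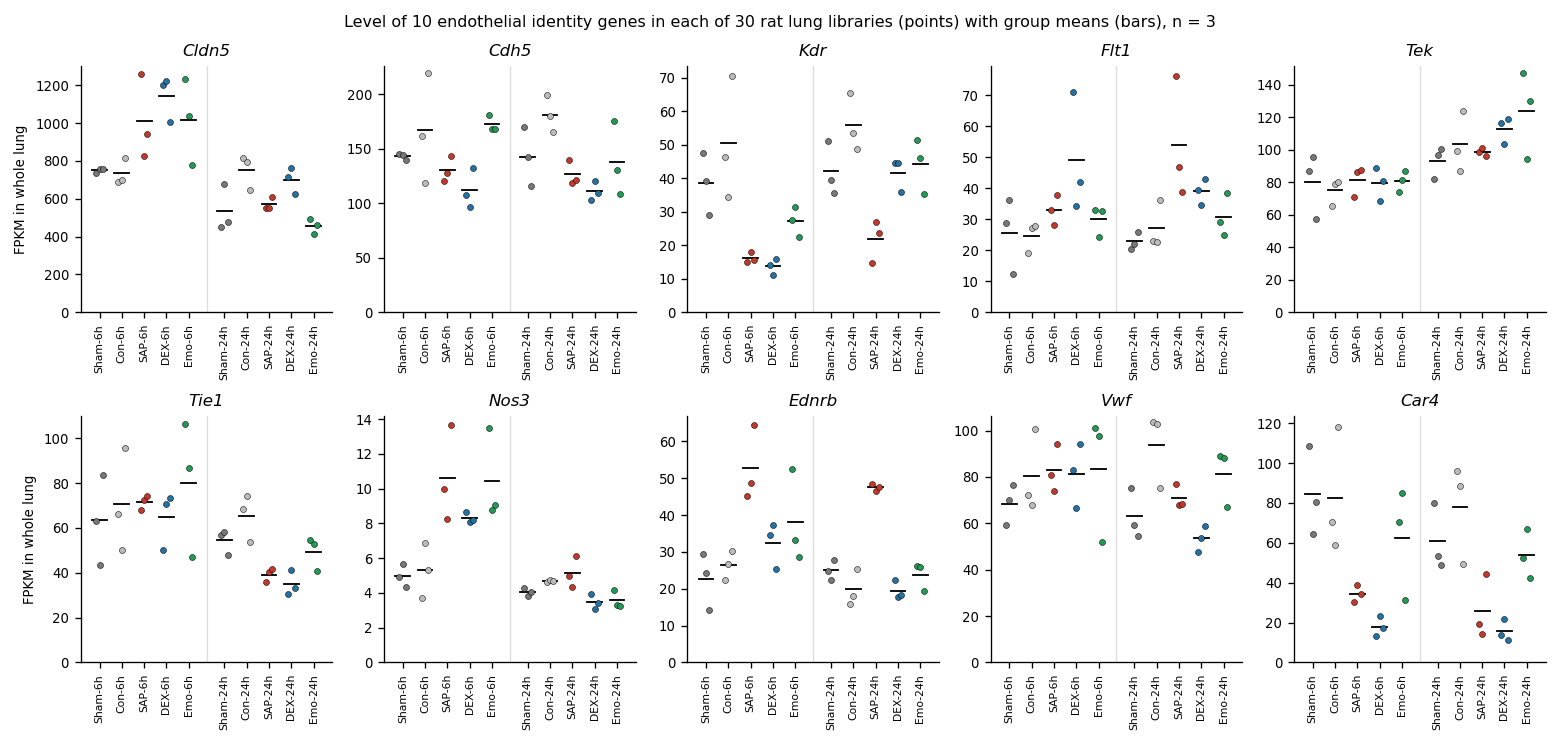
FPKM (vertical axes, linear from 0) of each of the 10 genes in the 30 libraries, 1 panel per gene, with 6-hour groups left and 24-hour groups right of the grey line; each point is 1 rat and each black bar the mean of 3. Kdr and Car4 were lower in the SAP libraries than in all Sham and Con libraries of the same time, Ednrb was higher, and Cdh5 overlapped.

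The first question was whether pancreatitis changed these genes in the lung. In SAP-6h rats Nos3 and Ednrb were higher and Kdr was lower than in Sham-6h rats. These 3 of the 10 genes had an adjusted p under 0.05 (edgeR, over all genes tested), which 0.27% of all genes reached. In SAP-24h rats Ednrb was again higher and Kdr lower than in Sham-24h, and Flt1 was higher. This was 3 of 10 genes against 12.4% of all genes. Of the remaining genes none passed in the same comparison, and the median log2 fold change of the 10 was 0.27 at 6 hours and 0.21 at 24 hours, against -0.02 and -0.03 over all genes. The calls were thus in both directions at each time. In whole tissue, fewer endothelial cells and less RNA per endothelial cell cannot be told apart. With only the 6 compared libraries in the model, which leaves 4 residual degrees of freedom in place of 20, none of these 6 calls passed by edgeR (adjusted p 0.0566 to 0.131), whereas all 6 passed by DESeq2 on the 30 libraries.

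In the study's summary of mapping, a share of cleaned reads is listed as unique tags. That share was lower in each library from a rat given taurocholate than in every Sham and Con library. In several taurocholate libraries, such as DEX-6h replicate 1, the deposited reads on genes outnumbered the unique tags listed. This was so in no Sham or Con library. What the tags count, and whether all libraries were counted alike, is therefore not known here. At 24 hours the share was higher in each DEX and Emo library than in every SAP library. In these comparisons that share and the treatment cannot be told apart.

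The saline infusion alone gave no call among the 10 genes by edgeR. Between Con-6h and Sham-6h 0% of all genes passed, and 0 of the 10 had an unadjusted p under 0.05 or passed by DESeq2. Between Con-24h and Sham-24h 9.85% of all genes passed but 0 of the 10, of which 2 (Cldn5 and Vwf) had an unadjusted p under 0.05 and passed by DESeq2. An unadjusted p under 0.05 was reached by 1372 of all 15934 genes at 6 hours and by 4307 at 24 hours. In Con-24h against Sham-24h the log2 fold change was 0.48 ± 0.19 for Cldn5 and 0.58 ± 0.21 for Vwf (adjusted p = 0.0923 and 0.0718). Cldn5 passed without replicate 2 of Sham-24h (adjusted p = 0.0434) and Vwf without replicate 3 of Con-24h (adjusted p = 0.0333).

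Sham and Con libraries were also pooled as 6 libraries without taurocholate at each time. The paper states that the saline infusion itself brought on mild pancreatitis, and it used Sham as the control. The pool is thus not a reference of uninjured rats alone. At 6 hours the 3 SAP libraries lay above all 6 for Cldn5, Nos3 and Ednrb and below all 6 for Kdr and Car4, 5 of the 10 genes against 6.67% of all genes. At 24 hours they lay above all 6 for Flt1 and Ednrb and below all 6 for Kdr, Tie1 and Car4, again 5 of 10, against 13.4% of all genes. Ednrb above and Kdr and Car4 below were thus seen at both times. Against the 3 Sham libraries alone, groups did not overlap for 5 of the 10 genes at 6 hours (15.3% of all genes) and for 6 at 24 hours (29.4%).

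**Figure D2:**
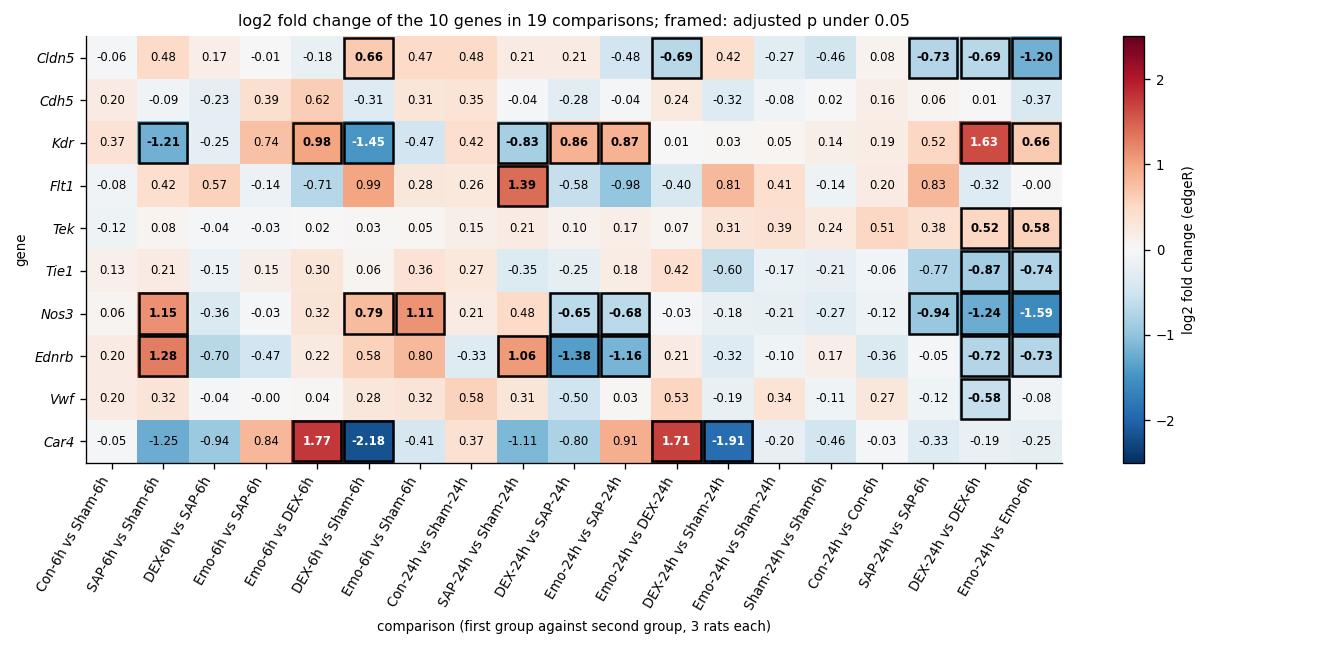
log2 fold changes of the 10 genes (rows) in 19 comparisons of 3 rats with 3 (columns), as fitted by edgeR, with red for higher and blue for lower in the first group named and black frames for an adjusted p under 0.05. Kdr and Nos3 were each called in 8 comparisons, Ednrb in 6, Cldn5 in 5, Car4 in 4 and Cdh5 in 0.

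The bases in front of the 3 genes that differed between SAP-6h and Sham-6h are shown because these genes moved in different directions in the same lungs. They are taken from RefSeq (rat build GRCr8, a later build than that of the deposited files) and run 5′ to 3′ towards the gene's start. Of the 250 bases before the start, those nearest to it that the RefSeq gene table places within the gene were left out, 32 for Kdr, 23 for Nos3 and 0 for Ednrb. Capitals mark matches, on either strand, to CCGGAA or CAGGAA (core letters of sites for ETS factors) and to CCACCC (core letters of sites for KLF factors), families that regulate many endothelial genes.
Kdr (chr14:32571813-32572030, plus strand): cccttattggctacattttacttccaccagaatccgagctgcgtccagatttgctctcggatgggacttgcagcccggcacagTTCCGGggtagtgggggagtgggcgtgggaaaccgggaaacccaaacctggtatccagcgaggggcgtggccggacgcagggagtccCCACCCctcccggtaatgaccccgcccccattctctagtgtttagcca
Nos3 (chr4:11706605-11706831, minus strand): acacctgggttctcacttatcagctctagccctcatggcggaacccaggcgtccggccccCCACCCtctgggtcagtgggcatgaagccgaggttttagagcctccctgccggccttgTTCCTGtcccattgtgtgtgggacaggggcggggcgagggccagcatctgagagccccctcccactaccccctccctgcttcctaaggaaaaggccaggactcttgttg
Ednrb (chr15:87086766-87087015, minus strand): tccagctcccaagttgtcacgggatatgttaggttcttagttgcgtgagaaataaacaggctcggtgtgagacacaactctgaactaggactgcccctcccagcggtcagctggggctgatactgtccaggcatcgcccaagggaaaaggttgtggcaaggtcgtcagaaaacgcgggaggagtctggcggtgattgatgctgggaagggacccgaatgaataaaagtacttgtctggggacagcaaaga
The RefSeq table held 7 of the 10 genes; Cdh5, Tek and Vwf were not matched. In the 250 bases before the start, CCACCC or its reverse complement was found for 4 of the 7 (Kdr, Flt1, Tie1 and Nos3), against 26.1% of 33469 such windows. CAGGAA was found for 2 of 7 (Nos3 and Car4) against 24.7%, and CCGGAA for 1 of 7 (Kdr) against 12.6%. The glucocorticoid response element, written as GNACA, 3 bases of any kind and TGTNC, with N for any base, was in 0 of the 7 windows and in 0.373% of all. CAGGAA and CCGGAA share their last letters but cannot match at the same place, and the bases shown for Ednrb hold none of the motifs. A match is a description of the letters and not a shown site, and no match says only that these letters are not in this window.

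Kdr was lower in SAP rats than in Sham rats at both times. Its FPKM was 47.6, 39.3 and 29.0 in the 3 Sham-6h rats and 46.4, 34.5 and 70.6 in Con-6h. It was 15.02, 17.97 and 15.5 in SAP-6h, 14.1, 11.1 and 15.9 in DEX-6h and 27.7, 31.4 and 22.5 in Emo-6h. All SAP-6h and DEX-6h rats were below all Sham-6h and Con-6h rats, and the Emo-6h rats lay between, with 1 of them above the lowest Sham-6h rat. Against Sham-6h, Kdr was lower in SAP-6h by edgeR with a log2 fold change of -1.21 ± 0.23 (adjusted p = 0.0246). Here and in all such values, ± is the SE from the model of all 10 groups, with n = 3 rats per group. Kdr was also lower in DEX-6h (-1.45 ± 0.23, adjusted p = 5.39e-04). There 4 of the 10 genes were called, Kdr and Car4 lower and Cldn5 and Nos3 higher, against 9.75% of all genes. In Emo-6h the difference from Sham-6h was -0.47 ± 0.23 (adjusted p = 0.223). The SAP-6h call was lost without replicate 1 or 2 of Sham-6h or without replicate 2 or 3 of SAP-6h (adjusted p 0.0513 to 0.147). The DEX-6h call held in all 6 fits that left out 1 of its libraries (adjusted p up to 0.00563).

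At 24 hours Kdr was 51.2, 39.4 and 35.6 FPKM in Sham-24h and 65.4, 53.7 and 48.8 in Con-24h. In SAP-24h it was 14.7, 27.0 and 23.7, so that each SAP-24h rat was below all Sham-24h and Con-24h rats. It was 44.7, 44.5 and 35.9 in DEX-24h and 51.4, 46.2 and 35.3 in Emo-24h, values that overlapped Sham-24h. Kdr was lower in SAP-24h than in Sham-24h, with a log2 fold change of -0.83 ± 0.23 (adjusted p = 0.0222). Compared with SAP-24h it was higher in DEX-24h by 0.86 ± 0.23 (adjusted p = 0.0241) and in Emo-24h by 0.87 ± 0.23 (adjusted p = 0.0236). With only the compared groups in the model neither difference from SAP-24h passed (adjusted p = 0.103 and 0.125). Both comparisons share the same 3 SAP-24h rats. Each had 3 of the 10 genes called, against 7.71% of all genes for DEX-24h and 8.59% for Emo-24h. All 3 Kdr calls rested on replicate 1 of SAP-24h, the lowest: without it the log2 fold changes were -0.63, 0.68 and 0.68, with adjusted p = 0.124, 0.118 and 0.115. The call against Sham-24h was also lost without replicate 1 or 2 of Sham-24h, that of DEX-24h without replicate 1 or 2 of DEX-24h and that of Emo-24h without replicate 1 or 2 of Emo-24h.

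Flt1, the other VEGF receptor, was higher where Kdr was lower at 24 hours. Its FPKM was 20.5, 22.1 and 26.1 in Sham-24h, 23.2, 22.7 and 36.2 in Con-24h and 76.4, 46.8 and 38.9 in SAP-24h. Each SAP-24h rat was above the 6 Sham-24h and Con-24h rats, replicate 1 by the most. It was 39.6, 34.5 and 43.1 in DEX-24h and 29.3, 24.9 and 38.5 in Emo-24h, with both means between those of SAP-24h and Sham-24h. Flt1 was 1.39 ± 0.33 higher in SAP-24h than in Sham-24h on the log2 scale (adjusted p = 0.00943), and this call was lost without replicate 1 of SAP-24h (adjusted p 0.0696). Against SAP-24h, Flt1 was -0.98 ± 0.33 in Emo-24h (adjusted p = 0.0617; 0.0222 by DESeq2) and -0.58 ± 0.32 in DEX-24h (adjusted p = 0.291). The Emo-24h difference passed without replicate 3 of SAP-24h (adjusted p = 0.0387) or replicate 3 of Emo-24h (adjusted p = 0.0468).

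At 6 hours Flt1 was 28.8, 36.1 and 12.2 FPKM in Sham-6h, 33.2, 28.1 and 37.7 in SAP-6h and 71.0, 34.3 and 42.2 in DEX-6h, with overlapping groups. The difference was 0.42 ± 0.32 for SAP-6h (adjusted p = 0.637) and 0.99 ± 0.33 for DEX-6h against Sham-6h (adjusted p = 0.0543; 0.0194 by DESeq2). The latter passed without replicate 2 of Sham-6h (adjusted p = 0.0292) or of DEX-6h (adjusted p = 0.0328). The change of the SAP effect on Flt1 from 6 to 24 hours was 0.97 ± 0.46 on the log2 scale and did not pass (adjusted p = 0.387).

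The balance of Flt1 and Kdr set SAP libraries apart from Sham and Con libraries, whereas Emo libraries overlapped Sham. The ratio of Flt1 to Kdr FPKM was 0.421 to 0.919 in Sham-6h, 0.393 to 0.79 in Con-6h, 1.56 to 2.43 in SAP-6h, 2.65 to 5.06 in DEX-6h and 0.779 to 1.46 in Emo-6h. At 24 hours it was 0.401 to 0.732 in Sham-24h, 0.354 to 0.742 in Con-24h, 1.64 to 5.19 in SAP-24h, 0.538 to 1.09 in Emo-24h and 0.775 to 1.20 in DEX-24h. All 6 SAP libraries were above 1.5 and all 12 Sham and Con libraries were below 1. The ratio is given as a description, without a test, and shows unequal change of the 2 genes within a library.

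**Figure D3:**
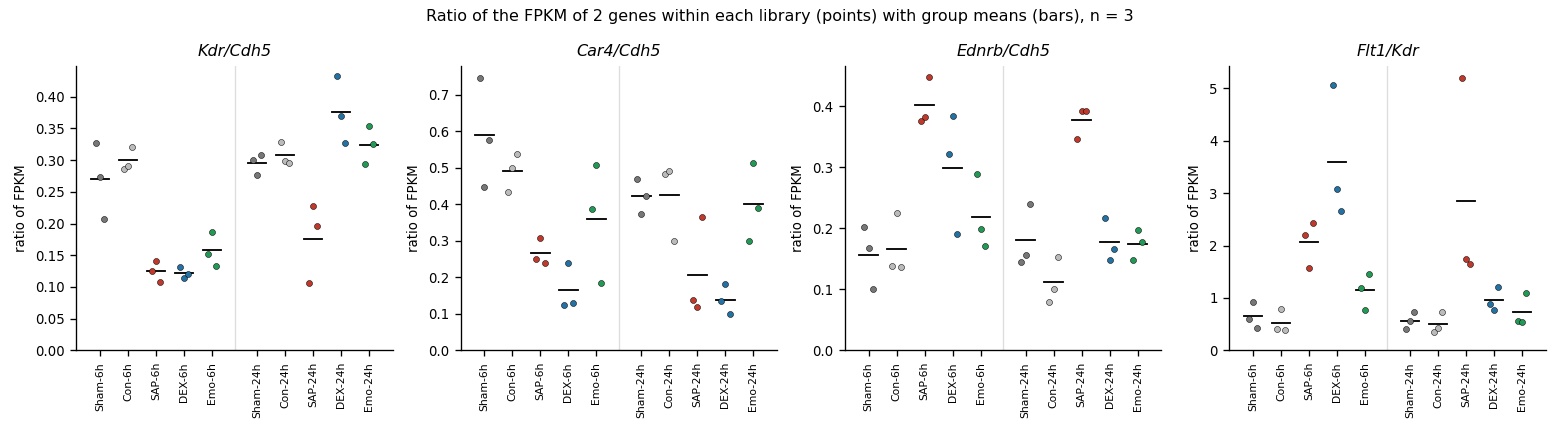
Ratio of the FPKM of 2 genes within each library (vertical axes, linear from 0), with points for rats and bars for the means of 3. Kdr/Cdh5 was at most 0.141 in SAP-6h and 0.227 in SAP-24h, below all Sham and Con libraries of the same time, Ednrb/Cdh5 in the SAP libraries was above them, and Flt1/Kdr was above 1.5 in all SAP libraries.

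Ednrb was higher in both SAP groups and lower in the 24-hour drug groups than in SAP-24h. At 24 hours its FPKM was 24.7, 22.4 and 27.8 in Sham-24h, 15.9, 18.1 and 25.4 in Con-24h and 48.3, 46.6 and 47.6 in SAP-24h. It was 22.5, 17.8 and 18.2 in DEX-24h and 26.1, 25.9 and 19.3 in Emo-24h. The SAP-24h rats lay close together and above all 12 other rats of that time. Ednrb was 1.06 ± 0.24 higher in SAP-24h than in Sham-24h on the log2 scale (adjusted p = 0.00691). Against SAP-24h it was -1.38 ± 0.24 in DEX-24h (adjusted p = 0.00136) and -1.16 ± 0.24 in Emo-24h (adjusted p = 0.00661). All 3 calls held in every fit that left out 1 of their 6 libraries, with adjusted p up to 0.0374, 0.0113 and 0.0284. With the compared groups alone in the model, DEX-24h against SAP-24h passed (adjusted p = 0.0171) and the other 2 missed (adjusted p = 0.0566 and 0.0671).

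At 6 hours Ednrb was 29.3, 24.1 and 14.1 FPKM in Sham-6h, 22.4, 26.7 and 30.1 in Con-6h and 45.1, 48.8 and 64.4 in SAP-6h. It was 34.6, 37.3 and 25.2 in DEX-6h and 52.4, 33.3 and 28.7 in Emo-6h. The SAP-6h rats were above all Sham-6h, Con-6h and DEX-6h rats and overlapped Emo-6h. The difference of SAP-6h from Sham-6h was 1.28 ± 0.24 on the log2 scale (adjusted p = 0.0234). This call was lost without replicate 2 or 3 of Sham-6h or without replicate 3 of SAP-6h (adjusted p 0.0633 to 0.141). Replicate 3 of SAP-6h had the highest Ednrb FPKM and the fewest reads on genes of all libraries. Emo-6h against Sham-6h was 0.80 ± 0.24 and missed the threshold (adjusted p = 0.0583), but passed by DESeq2 (adjusted p = 0.0185) and without replicate 2 of Emo-6h (adjusted p = 0.0445). DEX-6h and Emo-6h did not pass against SAP-6h (-0.70 ± 0.24, adjusted p = 0.177; -0.47 ± 0.24, adjusted p = 0.385).

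Car4, the other aerocyte gene, had its lowest group mean at each time in DEX rats. Its FPKM at 6 hours was 109, 64.2 and 80.3 in Sham-6h, 70.5, 59.1 and 118 in Con-6h and 30.2, 39.1 and 34.4 in SAP-6h. It was 13.4, 23.3 and 17.3 in DEX-6h and 70.3, 85.2 and 31.3 in Emo-6h. The order was Sham-6h and Con-6h highest, then Emo-6h, which spread over both, then SAP-6h, and DEX-6h below all other libraries of that time. The SAP-6h rats were below all 6 Sham-6h and Con-6h rats, but edgeR did not call the difference (-1.25 ± 0.39, adjusted p = 0.155; 0.0482 by DESeq2). DEX-6h against Sham-6h was called (-2.18 ± 0.41, adjusted p = 0.00183), and this held in all 6 fits that left out 1 of its libraries (adjusted p up to 0.0185). Emo-6h was higher than DEX-6h by 1.77 ± 0.40 (adjusted p = 0.0184), and this was lost without replicate 1 or 3 of DEX-6h or without replicate 1 or 2 of Emo-6h (adjusted p 0.0545 to 0.116).

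At 24 hours Car4 was 80.2, 53.5 and 48.9 FPKM in Sham-24h, 96.2, 88.7 and 49.6 in Con-24h and 19.1, 14.2 and 44.4 in SAP-24h. It was 13.96, 21.8 and 11.01 in DEX-24h and 52.4, 66.9 and 42.2 in Emo-24h. Replicate 3 of SAP-24h stood apart from the other 2, within reach of the Emo-24h rats. SAP-24h was -1.11 ± 0.39 against Sham-24h, which was not called (adjusted p = 0.0628), but was without replicate 3 of SAP-24h (log2 fold change -1.70, adjusted p = 0.0127) and by DESeq2 (adjusted p = 0.0324). DEX-24h was lower than Sham-24h by edgeR (-1.91 ± 0.40, adjusted p = 0.00465), and this held in all 6 fits that left out 1 of its libraries (adjusted p up to 0.0433). Emo-24h was higher than DEX-24h by 1.71 ± 0.40 (adjusted p = 0.0089), and this was lost without replicate 3 of DEX-24h or without replicate 2 of Emo-24h (adjusted p 0.0521 to 0.0655). Emo-24h against SAP-24h was 0.91 ± 0.39 and did not pass (adjusted p = 0.141), except without replicate 3 of SAP-24h (1.49, adjusted p = 0.0311).

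In the model of all 10 groups Car4 was thus called between Emo and DEX rats at both times. With only the compared groups in the model it missed at 6 hours (adjusted p = 0.0864) and passed at 24 hours (adjusted p = 0.0168). Kdr was called between the drugs at 6 hours but not at 24 hours, with 0.98 ± 0.23 for Emo-6h against DEX-6h (adjusted p = 0.0228) and 0.01 ± 0.23 for Emo-24h against DEX-24h (adjusted p = 0.987). The 6-hour Kdr call was lost without replicate 1, 2 or 3 of DEX-6h or without replicate 1 or 2 of Emo-6h (adjusted p 0.0529 to 0.105). It was also lost with only the compared groups in the model (adjusted p = 0.0524). Both times had 2 of the 10 genes called between the drugs, against 2.88% of all genes at 6 hours and 8.89% at 24 hours. The other gene called at 24 hours was Cldn5. The effect of each drug at 6 hours against SAP-6h gave 0 of 10 calls by edgeR and by DESeq2, against 0.979% of all genes for DEX-6h and 0.0314% for Emo-6h. At an unadjusted p under 0.05 there were 2 of the 10 genes for DEX-6h and 3 for Emo-6h. Of all 15934 genes, 1927 reached it for DEX-6h and 2146 for Emo-6h.

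Nos3 (endothelial nitric oxide synthase) was higher in every group given taurocholate at 6 hours, with or without a drug. Its FPKM at 6 hours was 4.89, 5.65 and 4.35 in Sham-6h and 3.69, 6.89 and 5.34 in Con-6h. It was 9.96, 8.27 and 13.7 in SAP-6h, 8.67, 8.05 and 8.22 in DEX-6h and 13.5, 8.77 and 9.03 in Emo-6h. All 9 rats given taurocholate were above all 6 Sham-6h and Con-6h rats, which was so, in either direction, for 1.2% of all genes. Against Sham-6h the log2 fold change was 1.15 ± 0.19 in SAP-6h (adjusted p = 0.00773), 0.79 ± 0.19 in DEX-6h (adjusted p = 0.0113) and 1.11 ± 0.19 in Emo-6h (adjusted p = 0.00776). Nos3 was the only one of the 10 genes called in Emo-6h against Sham-6h, where 3.26% of all genes passed. These 3 comparisons share the Sham-6h rats. With only the compared groups in the model DEX-6h passed (adjusted p = 0.0182), and SAP-6h and Emo-6h missed (adjusted p = 0.103 and 0.216). The SAP-6h call was lost without replicate 3 of Sham-6h or without replicate 3 of SAP-6h (adjusted p 0.0752 to 0.0902). That SAP-6h library had the highest Nos3 FPKM and the fewest reads on genes of all libraries. The DEX-6h call was lost without replicate 1 of Sham-6h (adjusted p 0.0502). The Emo-6h call was lost without replicate 1 of Sham-6h or without replicate 1 of Emo-6h (adjusted p 0.0512 to 0.0619).

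At 24 hours the level of Nos3 was low in all groups. Its FPKM was 4.28, 3.82 and 4.04 in Sham-24h, 4.62, 4.72 and 4.68 in Con-24h and 4.98, 4.32 and 6.15 in SAP-24h. It was 3.96, 3.07 and 3.42 in DEX-24h and 4.17, 3.33 and 3.26 in Emo-24h. Nos3 in SAP-24h overlapped Con-24h, and its difference from Sham-24h was 0.48 ± 0.19 (adjusted p = 0.101). Compared with SAP-24h, Nos3 was -0.65 ± 0.19 in DEX-24h (adjusted p = 0.0372) and -0.68 ± 0.19 in Emo-24h (adjusted p = 0.0314). Both missed with only the compared groups in the model (adjusted p = 0.120 and 0.123). The DEX-24h call was lost without replicate 1 or 3 of SAP-24h or without replicate 1, 2 or 3 of DEX-24h (adjusted p 0.0552 to 0.136), and the Emo-24h call was lost without replicate 1 or 3 of SAP-24h or without replicate 1, 2 or 3 of Emo-24h (adjusted p 0.0561 to 0.115). The change of the SAP effect between the times was -0.67 ± 0.27 and did not pass (adjusted p = 0.299).

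Of the junction genes, Cdh5 gave no call and Cldn5 gave 5. Cdh5 was called in 0 of 19 comparisons by edgeR, with 2 at an unadjusted p under 0.05 and 1 by DESeq2 (Emo-6h against DEX-6h, adjusted p = 0.0296). It was 145, 144 and 139.7 FPKM in Sham-6h, 120.1, 127 and 144 in SAP-6h, 170.4, 143 and 115 in Sham-24h and 139, 119 and 121 in SAP-24h. In the drug groups it was 107, 96.9 and 132 in DEX-6h, 181, 168 and 168 in Emo-6h, 103, 121 and 109.6 in DEX-24h and 175, 131 and 108 in Emo-24h. All DEX-6h rats were below all Sham-6h and Emo-6h rats. Its group means ran from 111 ± 8.74 (SD, n = 3) in DEX-24h to 181 ± 17.1 in Con-24h. The log2 fold change of SAP against Sham was -0.09 ± 0.18 at 6 hours and -0.04 ± 0.18 at 24 hours. Leaving out replicate 1 of Emo-24h brought Emo-24h against Emo-6h under the threshold (-0.56, adjusted p = 0.0379).

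Cldn5 was high at 6 hours after taurocholate. Its FPKM was 737, 758 and 758 in Sham-6h, 687, 701 and 815 in Con-6h and 1260.1, 825 and 943 in SAP-6h. It was 1200.5, 1224 and 1008 in DEX-6h and 1235, 1039 and 776 in Emo-6h. Of the 9 rats given taurocholate, 8 were above all Sham-6h and Con-6h rats, the exception being replicate 3 of Emo-6h. Only DEX-6h was called against Sham-6h (0.66 ± 0.19, adjusted p = 0.0274), and that call was lost without replicate 1, 2 or 3 of Sham-6h or without replicate 1 or 2 of DEX-6h (adjusted p 0.0574 to 0.0956). It was also lost with only the compared groups in the model (adjusted p = 0.0664). SAP-6h was 0.48 ± 0.19 against Sham-6h (adjusted p = 0.252).

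At 24 hours Cldn5 was 453, 679 and 479.5 FPKM in Sham-24h, 815, 793 and 649 in Con-24h and 553, 554 and 609 in SAP-24h. It was 716, 762 and 625 in DEX-24h and 491, 414 and 460.1 in Emo-24h. Emo-24h had the lowest mean of all 10 groups, and each Emo-24h rat was below every SAP-24h and DEX-24h rat. Emo-24h was -0.69 ± 0.19 against DEX-24h (adjusted p = 0.0211) and -0.48 ± 0.19 against SAP-24h, which did not pass (adjusted p = 0.0985). The call against DEX-24h was lost without replicate 2 of DEX-24h or without replicate 1 or 2 of Emo-24h (adjusted p 0.0626 to 0.0983), and it passed with the compared groups alone (adjusted p = 0.0201).

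Tek and Tie1, the angiopoietin receptor and its partner, were called only between the 2 times. Tek was at 82.1 to 100.3 FPKM in Sham-24h, 96.2 to 101 in SAP-24h, 94.5 to 147 in Emo-24h and 103 to 119 in DEX-24h, and at 70.8 to 87.5 in SAP-6h, 73.9 to 86.7 in Emo-6h and 68.4 to 88.7 in DEX-6h. Tie1 was at 48.0 to 58.4 FPKM in Sham-24h, 35.6 to 41.5 in SAP-24h, 40.8 to 54.5 in Emo-24h and 30.6 to 41.1 in DEX-24h. Each SAP-24h and DEX-24h library was below all Sham-24h and Con-24h libraries for Tie1, with log2 fold changes against Sham-24h of -0.35 ± 0.26 (adjusted p = 0.389) and -0.60 ± 0.26 (adjusted p = 0.182) that did not pass. The ratio of Tek to Tie1 was 1.04 to 1.20 in SAP-6h and 2.32 to 2.77 in SAP-24h, against 0.687 to 2.20 in Sham-6h and 1.44 to 2.09 in Sham-24h. Tek was higher and Tie1 lower at 24 than at 6 hours in the DEX and Emo groups, as the calls by time show.

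Vwf was called in 1 of 19 comparisons, between the times in DEX rats. Its FPKM was 75.1, 59.3 and 54.4 in Sham-24h, 77.0, 67.8 and 68.3 in SAP-24h, 47.8, 53.8 and 59.0 in DEX-24h and 89.2, 88.0 and 67.0 in Emo-24h. All DEX-24h rats were below all SAP-24h and Emo-24h rats, but the differences did not pass (-0.50 ± 0.21 for DEX-24h against SAP-24h, adjusted p = 0.144; 0.53 ± 0.21 for Emo-24h against DEX-24h, adjusted p = 0.118, and 0.0459 with these 2 groups alone in the model). Platelets also carry Vwf. The summed FPKM of 8 platelet markers was 44.4 to 115 in Sham-6h, 107 to 335 in SAP-6h and 125 to 254 in DEX-6h. In DEX-6h against Sham-6h 5 of the 8 were higher, beside 9.75% of all genes called, and in SAP-6h against Sham-6h no single one passed edgeR's test (0.27% of all genes). Vwf was 0.32 ± 0.21 and 0.28 ± 0.21 against Sham-6h in SAP-6h and DEX-6h (adjusted p = 0.553 and 0.418). Their part in the level of Vwf was not tested.

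Ratios to Cdh5, the one gene without a call, were computed within each library. The ratio of Kdr to Cdh5 FPKM was 0.208 to 0.327 in Sham-6h and 0.108 to 0.141 in SAP-6h, and 0.276 to 0.308 in Sham-24h and 0.106 to 0.227 in SAP-24h. It was 0.134 to 0.187 in Emo-6h and 0.115 to 0.131 in DEX-6h, below all Sham-6h and Con-6h libraries. At 24 hours it was 0.293 to 0.354 in Emo-24h and 0.328 to 0.432 in DEX-24h. The ratio of Ednrb to Cdh5 was 0.145 to 0.241 in Sham-24h and 0.347 to 0.392 in SAP-24h. The level of Cdh5, by which these ratios are divided, was itself low in the DEX groups. For Car4 the ratio was 0.375 to 0.471 in Sham-24h, 0.12 to 0.365 in SAP-24h, 0.299 to 0.512 in Emo-24h and 0.1 to 0.181 in DEX-24h. All SAP libraries lay below the Sham and Con libraries of the same time for Kdr and above them for Ednrb. For Car4 they lay below the Sham libraries, but at 24 hours they overlapped Con-24h (0.3 to 0.492). A ratio within a library shows unequal change of its genes and not which of them changed.

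Levels at 6 and 24 hours were compared within each treatment. In Sham rats 0 of the 10 were called by edgeR and DESeq2, against 0.992% of all genes, and 0 in Con rats by either, against 0.0126%. In each, 1 of the 10 had an unadjusted p under 0.05, beside 3246 of all 15934 genes in Sham and 1678 in Con rats. In SAP rats Cldn5 (-0.73 ± 0.19) and Nos3 (-0.94 ± 0.19) were lower at 24 hours, 2 of 10 against 6.01%. An unadjusted p under 0.05 was reached there by 6 of the 10 and by 3952 of all 15934 genes. Tie1 was -0.77 ± 0.26 and missed the threshold (adjusted p = 0.0733), but passed by DESeq2 (adjusted p = 0.0386) and with only the SAP groups in the model (adjusted p = 0.0339). In that smaller model neither Cldn5 nor Nos3 passed (adjusted p = 0.15 and 0.1). The Cldn5 call was lost without replicate 1 of SAP-6h or without replicate 1, 2 or 3 of SAP-24h (adjusted p 0.0512 to 0.156). The Nos3 call held in all 6 fits that left out 1 of its libraries (adjusted p up to 0.0462).

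In DEX rats 7 of the 10 genes were called between the times, against 25.9% of all genes. Kdr (1.63 ± 0.23, adjusted p = 8.01e-05) and Tek (0.52 ± 0.17) were higher at 24 hours. Nos3 (-1.24 ± 0.19, adjusted p = 1.53e-04), Tie1 (-0.87 ± 0.26), Ednrb (-0.72 ± 0.24), Cldn5 (-0.69 ± 0.19) and Vwf (-0.58 ± 0.21) were lower. In Emo rats 6 of the 10 were called against 34.1%: Kdr (0.66 ± 0.23) and Tek (0.58 ± 0.17) higher, and Nos3 (-1.59 ± 0.19, adjusted p = 1.93e-05), Cldn5 (-1.20 ± 0.19, adjusted p = 9.01e-05), Tie1 (-0.74 ± 0.26) and Ednrb (-0.73 ± 0.24) lower. With only the Emo groups in the model Tie1 (adjusted p = 0.0805) and Ednrb (adjusted p = 0.0514) missed. Where no adjusted p of the full model is given it lay between 0.00912 and 0.0423. Nos3 and Cldn5 in both drug groups and Kdr in DEX rats held without any 1 library.

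The other DEX calls between the times were each lost without some library. Tek was lost without replicate 2 or 3 of DEX-6h or without replicate 1 or 3 of DEX-24h (adjusted p 0.0641 to 0.109), Tie1 was lost without replicate 2 or 3 of DEX-6h or without replicate 1 or 3 of DEX-24h (adjusted p 0.0547 to 0.0823), Ednrb was lost without replicate 1 or 2 of DEX-6h or without replicate 2 or 3 of DEX-24h (adjusted p 0.0766 to 0.108) and Vwf was lost without replicate 1 or 3 of DEX-6h or without replicate 1, 2 or 3 of DEX-24h (adjusted p 0.0605 to 0.164). With the replicate number as a block in the model Vwf was not called either (adjusted p = 0.0511), which leaves 6 of the 10 genes. Of the Emo calls, Kdr was lost without replicate 1 or 3 of Emo-6h or without replicate 1 or 2 of Emo-24h (adjusted p 0.067 to 0.13), Tek was lost without replicate 1 or 3 of Emo-24h (adjusted p 0.0565 to 0.0592), Tie1 was lost without replicate 1 or 2 of Emo-6h or without replicate 2 or 3 of Emo-24h (adjusted p 0.0526 to 0.209) and Ednrb was lost without replicate 1 of Emo-6h or without replicate 3 of Emo-24h (adjusted p 0.0786 to 0.197). Whether an effect differed between the times was tested as an interaction, and 0 of the 10 genes passed by edgeR for SAP against Sham, for DEX against SAP or for Emo against SAP, against 0.0314%, 0.169% and 3.57% of all genes. In each of these tests 2 of the 10 had an unadjusted p under 0.05, beside 2003, 2167 and 3725 of all 15934 genes. By DESeq2 1 passed, Kdr in DEX against SAP (1.11 ± 0.32 by edgeR, adjusted p = 0.143; 0.0495 by DESeq2).

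The drug groups were also set directly against Sham. In DEX-24h 1 of the 10 genes (Car4) differed from Sham-24h, against 6.97% of all genes, and Flt1 also passed with these 2 groups alone in the model (0.80, adjusted p = 0.0268). Cldn5 passed there without replicate 2 of Sham-24h (adjusted p = 0.0472). In Emo-24h against Sham-24h 0 of the 10 passed by edgeR or DESeq2, and 0% of all genes passed. An unadjusted p under 0.05 was reached there by 1 of the 10 and by 478 of all 15934 genes. The 10 log2 fold changes of Emo-24h against Sham-24h ran from -0.27 to 0.41, and those of SAP-24h against Sham-24h from -1.11 to 1.39. Groups did not overlap in FPKM for 0 of the 10 genes in Emo-24h against Sham-24h (8.62% of all genes).

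Partners of the 10 genes in the same pathways were followed at 24 hours. Of the VEGF and angiopoietin ligands and co-receptors, 1 of 12 were higher and 4 lower in SAP-24h than in Sham-24h (median log2 fold change -0.22, against -0.03 over all genes), where 12.4% of all genes were called. Angpt1, the ligand that activates Tek, was -1.40 ± 0.27, adjusted p = 0.00278, and Nrp1, a co-receptor of Kdr, was -1.16 ± 0.25, adjusted p = 0.00534. Both held in every fit without 1 of the 6 libraries. Figf (VEGF-D) was -1.63 ± 0.52, adjusted p = 0.0415, and this was lost without replicate 1 of Sham-24h or without replicate 1 or 2 of SAP-24h (adjusted p up to 0.282). In Emo-24h against SAP-24h, where 8.59% of all genes were called, 3 of 12 were higher and 0 lower, with Angpt1 at 1.18 ± 0.27, adjusted p = 0.0123, Nrp1 at 1.14 ± 0.25, adjusted p = 0.00926 and Vegfa, the main ligand of Kdr and Flt1, at 0.73 ± 0.20, adjusted p = 0.029. These 3 calls shared the SAP-24h rats with the first comparison. Angpt1 was lost without replicate 1 of SAP-24h or without replicate 2 of Emo-24h (adjusted p up to 0.066), Nrp1 was lost without replicate 1 of SAP-24h or without replicate 2 of Emo-24h (adjusted p up to 0.0667) and Vegfa was lost without replicate 1 or 2 of SAP-24h or without replicate 2 of Emo-24h (adjusted p up to 0.217). In DEX-24h against SAP-24h 1 of 12 were higher and 0 lower, with 7.71% of all genes called. The 1 was Angpt1 at 1.03 ± 0.27, adjusted p = 0.0213, which was lost without replicate 1 or 2 of SAP-24h or without replicate 1 or 2 of DEX-24h (adjusted p up to 0.0928).

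In the nitric oxide pathway 0 of 11 were higher and 5 lower in SAP-24h than in Sham-24h (median -0.73), beside 12.4% of all genes called. Nostrin, which moves Nos3 off the membrane, was -1.37 ± 0.25, adjusted p = 0.00203, and Gucy1a3, a subunit of the nitric oxide receptor guanylate cyclase, was -1.02 ± 0.20, adjusted p = 0.00315. Both held in every fit without 1 of the 6 libraries. Cav2, a caveolar coat protein, was -1.01 ± 0.26, adjusted p = 0.0144, and was lost without replicate 2 of Sham-24h or without replicate 1 of SAP-24h (adjusted p up to 0.0787). In Emo-24h against SAP-24h 4 of 11 were higher and 0 lower (8.59% of all genes called), led by Nostrin at 1.42 ± 0.25, adjusted p = 0.00387, which held in every fit without 1 of the 6 libraries. In DEX-24h against SAP-24h 2 of 11 were higher and 0 lower (7.71% of all genes), and Nostrin was 1.51 ± 0.25, adjusted p = 7.42e-04 in Emo-24h against DEX-24h. In the endothelin system Ece1, the enzyme that makes endothelin, was 1.12 ± 0.20, adjusted p = 0.00203 in SAP-24h against Sham-24h, and held in every fit without 1 of the 6 libraries. Of that list 1 of 5 were higher and 0 lower, beside 12.4% of all genes. Edn1, the ligand of Ednrb, was -1.72 ± 0.49, adjusted p = 0.0289 in Emo-24h against DEX-24h and was lost without replicate 2 or 3 of DEX-24h or without replicate 1, 2 or 3 of Emo-24h (adjusted p up to 0.107). Ednra, the other endothelin receptor, was 0.90 ± 0.20, adjusted p = 0.00688 there and was lost without replicate 2 of Emo-24h (adjusted p up to 0.0504). In that comparison 1 of 5 were higher and 1 lower of the endothelin list, beside 8.89% of all genes.

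Other endothelial genes gave calls in both directions too, to be read beside the 12.4% of all genes called in SAP-24h against Sham-24h. Of the junction and surface genes, 4 of 27 were higher and 2 lower in SAP-24h than in Sham-24h, with Emcn (endomucin) at -1.19 ± 0.24, adjusted p = 0.00319, Procr (the protein C receptor) at 1.50 ± 0.35, adjusted p = 0.0094 and S1pr1 (a barrier-protecting lipid receptor) at 1.07 ± 0.26, adjusted p = 0.0109. Emcn held in every fit without 1 of the 6 libraries, Procr was lost without replicate 1 of SAP-24h (adjusted p up to 0.0973) and S1pr1 was lost without replicate 1 of Sham-24h or without replicate 1 of SAP-24h (adjusted p up to 0.0785). Of the transcription factors 2 of 22 were higher and 2 lower, with Sox7 at -1.28 ± 0.28, adjusted p = 0.00574, which held in every fit without 1 of the 6 libraries. Of the general capillary genes 0 of 9 were higher and 2 lower, led by Sema3c at -1.72 ± 0.24, adjusted p = 4.05e-04, which held in every fit without 1 of the 6 libraries. Of the aerocyte genes other than Car4 and Ednrb 0 of 7 were higher and 2 lower, with Kitlg at -1.10 ± 0.25, adjusted p = 0.00645, which held in every fit without 1 of the 6 libraries. Of the arterial genes 1 of 9 were higher and 0 lower, of the venous genes 1 of 6 were higher and 0 lower and of the lymphatic genes 0 of 7 were higher and 0 lower by edgeR. The summed FPKM of the 7 lymphatic genes was nevertheless 404 to 720.0 in Sham-24h and 229 to 339 in SAP-24h. That of the 9 general capillary genes was 838 to 1173 in Sham-24h and 707 to 829.7 in SAP-24h, and that of the 7 aerocyte genes 309.9 to 370.1 in Sham-24h and 186 to 285 in SAP-24h. These 3 sums did not overlap between the groups, SAP-24h also lay below Con-24h in each, and 29.4% of all single genes did not overlap either. In the arterial and venous lists the sums overlapped.

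Between the drugs, calls among capillary genes included ligand and receptor of the apelin system. Apln, a peptide made by aerocytes, was -3.55 ± 0.49, adjusted p = 1.60e-04 in DEX-24h against SAP-24h and 3.18 ± 0.48, adjusted p = 3.40e-04 in Emo-24h against DEX-24h, and both calls held in every fit without 1 of the 6 libraries. Its receptor Aplnr was 2.48 ± 0.40, adjusted p = 6.24e-04 in Emo-24h against DEX-24h, which held likewise, and -1.60 ± 0.39, adjusted p = 0.0146 in DEX-24h against SAP-24h, which was lost without replicate 3 of SAP-24h or without replicate 1 or 3 of DEX-24h (adjusted p up to 0.0728). Gpihbp1, which anchors lipoprotein lipase on capillaries, was -1.94 ± 0.43, adjusted p = 0.00816 in DEX-24h against SAP-24h and held in every fit without 1 of the 6 libraries. Kit, the receptor of stem cell factor, was higher there at 1.45 ± 0.26, adjusted p = 0.00203, and this too held in every fit without 1 of the 6 libraries. Fibin went the other way from Apln, at -1.67 ± 0.39, adjusted p = 0.00851 in Emo-24h against DEX-24h, and was lost without replicate 2 of Emo-24h (adjusted p up to 0.0602). Of the aerocyte genes 2 of 7 were higher and 1 lower in Emo-24h than in DEX-24h, and of the general capillary genes 3 of 9 were higher and 1 lower, beside 8.89% of all genes called. In DEX-24h against SAP-24h 0 of 7 were higher and 2 lower of the aerocyte genes, and 3 of 9 were higher and 2 lower of the general capillary genes, beside 7.71% of all genes.

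These calls depended on the libraries in the model. Of the genes named by rule from all other lists, 13 of 33 calls in SAP-24h against Sham-24h held in every fit without 1 library and 0 with only the compared groups, where the adjusted p of Gucy1a3 was 0.0566 and that of Sema3c 0.0609. For Emo-24h against SAP-24h these were 1 and 0 of 27, and for DEX-24h against SAP-24h 8 and 9 of 25. Emo-24h against DEX-24h kept the most, 19 and 32 of 36.

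**Figure D4:**
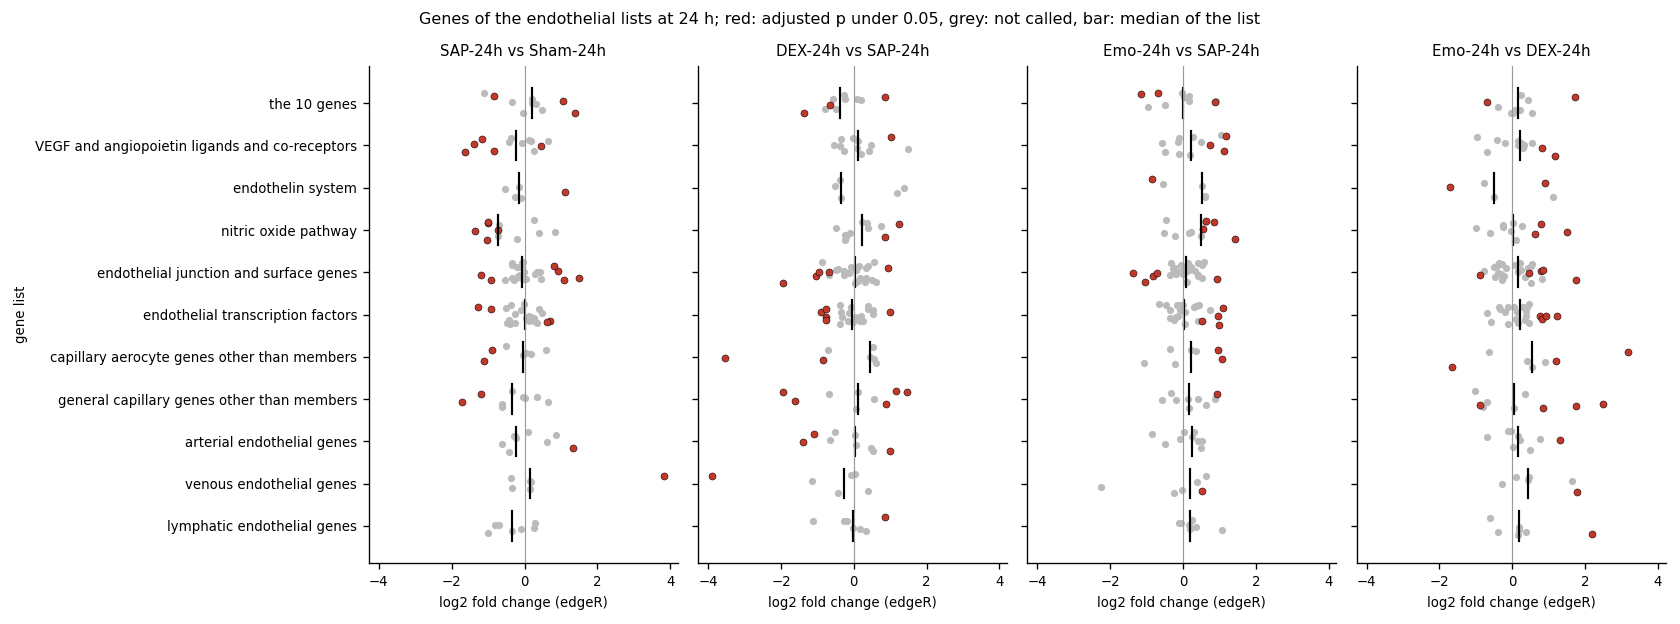
log2 fold changes (horizontal axes) of single genes in the 10 genes followed here and 10 other endothelial lists (rows) for 4 comparisons at 24 hours, with red points for an adjusted p under 0.05, grey points for other genes and bars for list medians. In SAP-24h against Sham-24h red points lie on both sides of 0 among the VEGF and angiopoietin genes, the junction genes and the transcription factors, with Apln at -3.55 and Selp at -3.89 farthest to the left in DEX-24h against SAP-24h.

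Markers of other cells are given as measured. In SAP-24h against Sham-24h 2 of 7 markers of alveolar type 1 cells (Aqp5 -1.55 and Clic5 -0.74) and 4 of 7 T cell markers were lower, and 3 of 7 fibroblast markers were lower and 1 higher, beside 12.4% of all genes called. Of the macrophage markers 2 of 7 were higher, and of the alveolar type 2 markers 1 of 8. The summed level of the 7 T cell markers was 62.4 to 91.3 FPKM in Sham-24h, 21.3 to 24.0 in SAP-24h, 26.4 to 92.0 in Emo-24h and 14.6 to 21.8 in DEX-24h. The summed level of 9 neutrophil markers, of which 0 passed, was 230.2 to 9277 in Sham-24h, 128 to 1008 in Con-24h and 4498 to 16346 in SAP-24h, against 4283 to 6646 in Emo-24h and 1032 to 2987 in DEX-24h. Rats of Sham-24h differed widely in it. The 7 markers of B cells and plasma cells, of which 1 was lower, summed to 157 to 276 in Sham-24h and 57.1 to 106 in SAP-24h. For the 7 fibroblast markers the sums were 479.8 to 616 and 254 to 355. In Con-24h the B cell and plasma cell sums were 98.5 to 227 and the fibroblast sums 353.5 to 595. Both overlapped SAP-24h. The 9 markers of pericytes and smooth muscle, cells that lie next to the endothelium in vessel walls, summed to 324 to 435 in Sham-24h, 305 to 553 in Con-24h and 198 to 262 in SAP-24h. The 7 ciliated cell markers summed to 221 to 235 in Sham-24h and 143 to 185 in SAP-24h. For both lists SAP-24h lay below Sham-24h without overlap, with a median log2 difference of -0.46 and -0.31, and no single marker of either passed edgeR's test. At 6 hours the 7 red blood cell markers summed to 971 to 4949 in Sham-6h, 2992 to 9387 in Con-6h and 8143 to 12633 in SAP-6h. The median log2 difference of these 7 between SAP-6h and Sham-6h was 2.08, and no single one passed edgeR's test. Their sums in SAP-6h and Sham-6h did not overlap, whereas those in SAP-6h and Con-6h did. For the 7 alveolar type 1 markers the sums were 2909 to 3969 in Sham-24h and 1415 to 2955 in SAP-24h. No marker of these lists was at 0 in all 30 libraries, but Marco, 1 of the 2 macrophage markers called higher, was at 0 in each Sham-24h library and 0 to 0.86 FPKM in SAP-24h. Their part in the values of the 10 genes was not tested.

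Across the 30 libraries the 10 genes did not rise and fall as 1 unit. Pearson's r of log2(FPKM + 1) over the 45 pairs had a median of 0.08 and ran from -0.74 (Flt1 with Car4) to 0.76 (Cldn5 with Nos3), with 25 pairs above 0. Kdr was at -0.65 with Nos3, -0.63 with Ednrb and 0.58 with Car4, and Nos3 was at 0.70 with Ednrb. The genes most like the mean of the 10 standardised genes, among 12399 genes with a mean of at least 1 FPKM, were Dchs1 (r = 0.83), Tp53i11 (0.81), Tbc1d9b (0.77), Sec31a (0.77) and Rasip1 (0.75). With that mean, Vwf was at 0.79, Tie1 at 0.71 and Cdh5 at 0.70, but Kdr at 0.03, Flt1 at -0.02 and Tek at -0.17. These values describe 30 libraries that share treatment groups and carry no test.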

How the data were processed

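RNA was sequenced from 30 rat lungs as poly(A), strand-specific, paired-end libraries. The authors cleaned reads with FASTX, aligned them with TopHat2 to an Ensembl rat genome and annotation allowing 2 mismatches, and dropped reads that mapped to several places; the deposited read counts per gene (22914 genes) are raw, and the program that counted them is not given in the sources used here. The deposited FPKM values (22907 genes, 2 decimals) are the authors' own scaling of these counts by length and library.

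Counts were fitted with edgeR 4.0.16 (limma 3.58.1, R 4.3.3; quasi-likelihood test, TMM) in 1 model of 10 groups with 20 residual degrees of freedom. Genes were kept by filterByExpr (minimum count 10, minimum total 15), which left 15934, and p-values were adjusted over them by Benjamini and Hochberg. Calls needed an adjusted p under 0.05. Fold changes put the first group named over the second. The test was checked on simulated counts first. There 13 of 50 genes raised 1.5-fold, 38 of 50 raised 2-fold and 48 of 50 raised 4-fold were called in SAP-24h against Sham-24h. Of 50 genes lowered to 0.5-fold 42 were called, beside 7 unchanged genes. A missing call therefore does not show that a gene was unchanged. DESeq2 1.42.0, other size factors, no filter, only the compared groups, a replicate block and leaving out each replicate were the alternatives. Sequences are from RefSeq (GRCr8). The 10 genes and all lists were chosen with earlier results of these data known. From each other list at most 3 genes per comparison were named, those called with the largest change at 24 hours, and the 5 genes most alike were those with the highest r. Replicate numbers come from the labels. Rats with the same number deviated together (every correlation over 0.1) only between DEX-24h and DEX-6h, at 0.212 to 0.230, so the blocked value is given there. P-values measure the spread between 3 rats per group.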

Additional observations from a re-analysis of the deposited data

How the results depend on the processing

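Of 37 calls of the 10 genes over 19 comparisons, 37 were kept with RLE size factors and 37 with DESeq2, 36 without the filter, 36 with the replicate block and 18 with only the compared groups in the model, and 0 changed sign. With only the compared groups, the genes called went from 3 to 0 in SAP-6h against Sham-6h, from 2 to 0 in Emo-6h against DEX-6h, from 1 to 0 in Emo-6h against Sham-6h, from 3 to 0 in SAP-24h against Sham-24h, from 3 to 0 in Emo-24h and from 3 to 1 in DEX-24h against SAP-24h, from 1 to 2 in DEX-24h against Sham-24h and from 2 to 1 in SAP-24h against SAP-6h, where Cldn5 and Nos3 were lost and Tie1 was gained. They also went from 4 to 3 in DEX-6h against Sham-6h, from 6 to 4 in Emo-24h against Emo-6h and, with Vwf gained, from 2 to 3 in Emo-24h against DEX-24h, and the count was the same in the other 8 comparisons. That model has 4 residual degrees of freedom in place of 20. DESeq2 called more of the 10 genes in 8 of the 19 comparisons and fewer in 0. It called 4 in place of 3 in SAP-6h and SAP-24h against Sham of the same time and in Emo-24h against SAP-24h, 3 in place of 2 in Emo-6h against DEX-6h and SAP-24h against SAP-6h, 5 in place of 4 in DEX-6h against Sham-6h, 2 in place of 1 in Emo-6h against Sham-6h, 2 in place of 0 in Con-24h against Sham-24h and 1 in place of 0 for the change of the DEX effect between times. Leaving out 1 library in turn kept 138 of 222 calls and 12 of 37 in every fit, with counts of 0 to 3 in SAP-6h, 2 to 4 in DEX-6h and 0 to 2 in Emo-6h against Sham-6h, 0 to 2 in Emo-6h against DEX-6h, 0 to 1 in Con-24h, 1 to 4 in SAP-24h and 1 to 2 in DEX-24h against Sham-24h, 1 to 4 in Emo-24h and 1 to 3 in DEX-24h against SAP-24h, 0 to 2 in Emo-24h against DEX-24h, and between times 1 to 2 in SAP, 3 to 5 in DEX and 3 to 5 in Emo rats. Other comparisons gave 0 throughout. The replicate block called 6 genes in place of 7 in DEX-24h against DEX-6h and changed no other call of the 10 genes. The cause of these shifts was not tested.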

Other observations

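Rats of 1 group also differed from each other in these genes. With the group means removed, r over the 30 libraries was 0.73 between Flt1 and Tek, 0.70 between Tie1 and Car4 and 0.69 between Tie1 and Vwf. It was -0.57 between Flt1 and Tie1 and -0.50 between Tek and Tie1, although Tek and Tie1 are partner receptors. Over all 45 pairs the median was 0.15, with 33 pairs above 0. The pairs named lie at the ends of the 45, and no other gene pairs were set beside them. These are descriptions with no test, and the cause was not tested.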
